A study of Mus musculus with 4 samples.

Results

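The p53 target and arrest genes were followed through mouse adipose tissue as 10 genes chosen by symbol, out of the 32290 features of each table: Cdkn1a, Gadd45a, Ccng1, Phlda3, Mdm2, Bax, Zmat3, Trp53inp1, Sesn1 and Sesn2. All 10 had UMIs (unique molecular identifiers, 1 per counted RNA molecule) in each of the 4 libraries. They were read across cell classes set by marker genes, across depots, and in KO against WT.

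The study profiled dissociated subcutaneous (SC) and intraperitoneal (IP) adipose tissue by single-cell RNA sequencing, with 4 groups, WT SC, KO SC, WT IP and KO IP, and 1 library each. Both genotypes carried Tie2e-cre and the mTmG reporter, which turns from a red to a green membrane protein where the recombinase has acted. WT was TERT+/+ and KO was TERTfl/fl, so that Tert, the gene of the telomerase catalytic subunit, could be removed in the KO alone. All mice were male, 7 months of age, and had been on a high-fat diet (HFD) for 5 months.

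The recombinase is under the control of Tie2 sequences, which the study uses as specific for endothelial cells (EC), so that the genotype differs by design in EC and most cells described here are not EC. The number of mice behind a library was not given in the sources used here, and the labels speak of nuclei in 1 place and of cells in others. Over all barcodes, Tert itself had 3 (WT) and 2 (KO) UMIs in SC and 8 (WT) and 9 (KO) in IP, which is too few to check the genotype. With 1 library per group there is no replicate of KO against WT within a depot or of IP against SC within a genotype, and no p-value is given for either. Each factor was tested only over the 4 libraries of a class together, with the other factor as a block.

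p53, the product of Trp53, is a transcription factor that is held low by the ubiquitin ligase Mdm2 and is released by DNA damage and other stress. It then raises a set of genes that stop the cell cycle, repair DNA, restrain growth signalling or start apoptosis, and Mdm2 is among them, which closes a feedback loop. Cdkn1a codes for p21, an inhibitor of cyclin-dependent kinases, and is widely read as a sign of arrest and senescence. Several of these genes also answer to other factors, so that their RNA alone does not measure p53.

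A sequence feature was found upstream of a RefSeq transcription start in 6 of the genes. RefSeq windows of 250 bases before to 50 after a transcription start (GRCm38.p6) were found for 8 of the 10 genes and not for Trp53inp1 or Zmat3. The p53 half-site, the palindromic motif that p53 binds in pairs, was searched on both strands and was present in 6 of the 10 windows of these genes (60%), against 8.36% of all 32851 windows. A match is a description of the letters and not a bound site. The genes were listed as p53 targets beforehand, so the shares describe that list and are not a test. The 10 windows belong to 8 genes. For each gene with a match, 1 stretch upstream of the RefSeq start is shown, and the class pattern of each gene is described below. Sequences run 5′ to 3′ on the strand of the gene, and capitals mark the half-site.
Cdkn1a, chr17:29090898-29090967, plus strand: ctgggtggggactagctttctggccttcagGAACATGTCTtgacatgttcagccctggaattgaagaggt
Mdm2, chr10:117710905-117710974, minus strand: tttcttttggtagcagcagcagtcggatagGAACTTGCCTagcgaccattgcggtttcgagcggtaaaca
Ccng1, chr11:40755432-40755501, minus strand: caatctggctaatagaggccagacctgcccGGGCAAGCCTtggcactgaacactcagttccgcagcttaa
Gadd45a, chr6:67037408-67037477, minus strand: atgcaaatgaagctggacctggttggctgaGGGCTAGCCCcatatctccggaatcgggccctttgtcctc
Bax, chr7:45467060-45467129, minus strand: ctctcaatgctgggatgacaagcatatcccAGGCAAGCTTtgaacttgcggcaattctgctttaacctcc
Sesn1, chr10:41887236-41887305, plus strand: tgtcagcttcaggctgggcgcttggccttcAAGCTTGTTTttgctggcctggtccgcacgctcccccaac
The half-site shown for Cdkn1a starts at -51 from the transcription start, and the window holds another at -73. The others start at -186 (Mdm2), -185 (Ccng1), -40 (Gadd45a), -201 (Bax) and -173 (Sesn1). The Sesn1 stretch lies inside the annotated gene (chr10:41809935-41908424), so the start used there is an internal one. The Gadd45a half-site also lies inside its annotated gene (chr6:67035096-67037457).

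The filters left 968 (WT) and 1862 (KO) cells in SC and 672 (WT) and 518 (KO) in IP, at a median of 6905 to 13047 UMIs per cell. KO SC and WT IP shared 93 cell barcodes, where the other pairs of libraries shared 0 or 1. All 93 had more UMIs in WT IP, by a median of 58.5 times, and 73 of them were called ASC-like in both libraries. The KO SC copies, which held 28 UMIs of the 10 genes in all, were left out. A cell took a class when at least 3 of the 6 markers of that class were detected and at least 2 more than of any other class. In the order WT SC, KO SC, WT IP and KO IP, this gave 431, 1107, 103 and 108 T-like cells, 298, 444, 20 and 24 B-like cells, 102, 125, 279 and 209 ASC-like cells (adipose stromal cells, called from Pdgfra and collagen genes), and 22, 13, 54 and 13 NK-like cells. Macrophage-like cells numbered 71 in WT IP and 16 in KO IP, with 1 in each SC library. EC-like cells numbered 17 in WT IP and at most 4 elsewhere, so that KO against WT could not be compared in EC. The classes are named below without "-like".

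Levels are given as CPM, the UMIs of a gene in 1000000 UMIs of all genes in that class and library. They are compared between classes and libraries and not between genes. For differences between classes the libraries served as replicates. UMIs were summed per class and library, and ASC, T cells and B cells, the classes with at least 20 cells in every library, were compared in pairs with edgeR's quasi-likelihood test, with library as a block and Benjamini-Hochberg adjustment over 11047 genes and all 3 pairs. The p-values measure how far a class difference varied over these 4 libraries, with the spread shared in part over genes. The libraries also differ in depot and genotype, so effects of these on a class difference are part of that spread. A difference was called at an adjusted p under 0.05. The standard error (SE) given with an edgeR value is approximate. It is the absolute log2 fold change divided by the square root of the test's F statistic.

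Of 30 differences (10 genes in 3 pairs), 18 were called. In ASC against B cells 6 of 10 genes were called, 4 higher and 2 lower in ASC, where 63.3% of all genes tested were called. In ASC against T cells it was again 6 of 10, 4 higher and 2 lower, against 65.2% of all genes. In B cells against T cells 2 genes were higher and 4 lower, against 31.5% of all genes. The first 2 shares are close to the background of these very different cell types. The median log2 fold change of the 10 genes was 0.04 in ASC over B cells, -0.09 in ASC over T cells and -0.56 in B cells over T cells, where the medians of all genes were 0.15, 0.14 and -0.04. The genes thus did not move as a block between classes, and each pattern is described in turn.

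**Figure D1:**
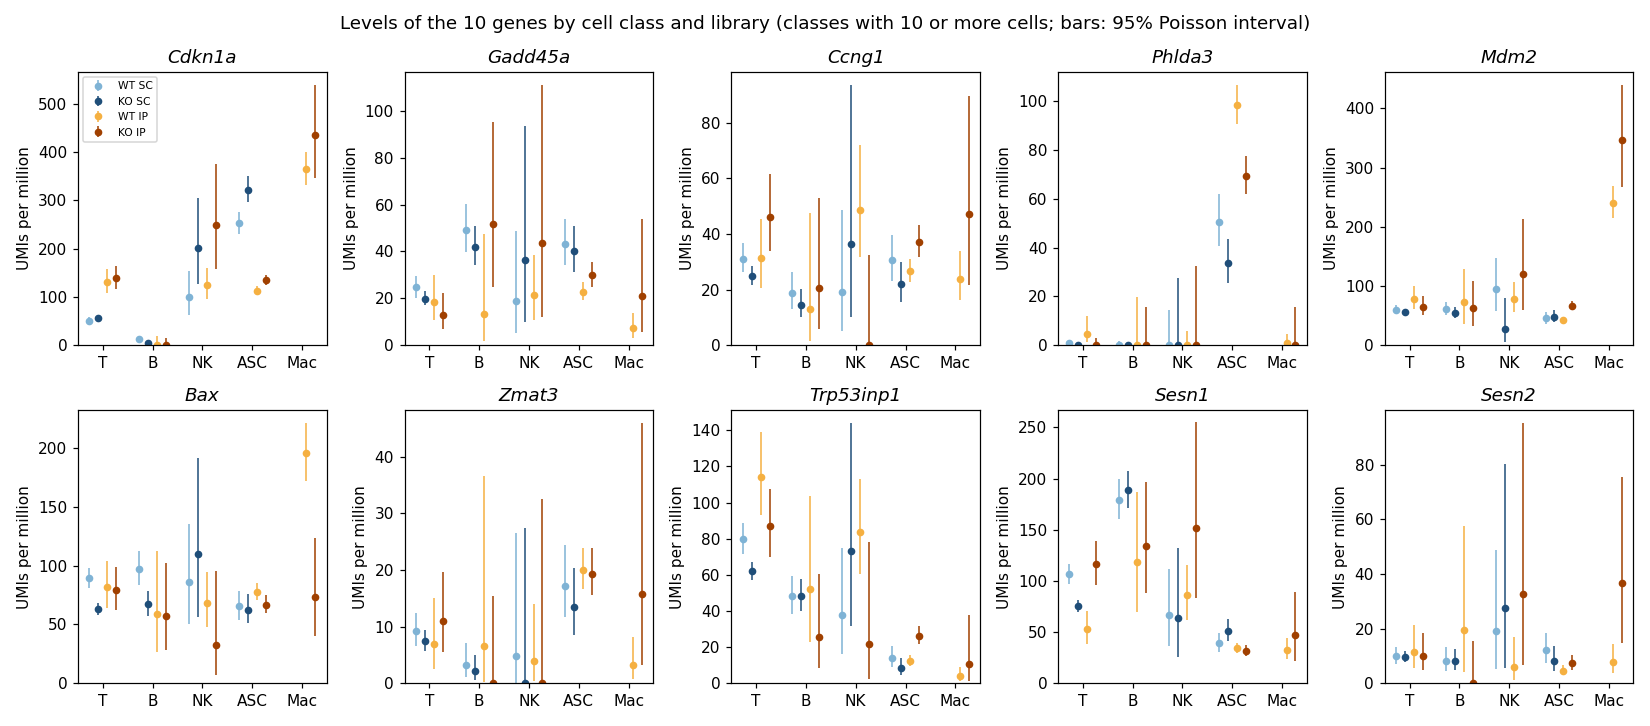
Level of each of the 10 genes (vertical axis, CPM, linear scale that differs between panels) in T cells, B cells, NK cells, ASC and macrophages (Mac), with 1 point per library and 95% Poisson intervals for counting error. Cdkn1a in B cells sits at 0 to 13.5 in all 4 libraries, Phlda3 is near 0 outside ASC, and Mdm2 stands at 240 and 346 in the macrophages of the 2 IP libraries.

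Among the arrest genes, Cdkn1a (ENSMUSG00000023067, chr17:29090976-29100727, plus strand) separated the classes widely. In ASC its level was 252 (WT) and 322 (KO) CPM in SC and 113 (WT) and 135 (KO) in IP. T cells held 51.1, 57.2, 131 and 139 CPM in the same order, and B cells 13.5, 4.23, 0 and 0. Every library had more Cdkn1a in ASC than in B cells and the ranges of these classes were far apart. ASC and T cells overlapped, since T cells lay below ASC in SC and slightly above ASC in IP. The log2 fold change was 4.86 in ASC over B cells (SE 0.62, adjusted p = 1.54e-05 by edgeR), -3.62 in B cells over T cells (SE 0.65, adjusted p = 0.000312) and 1.24 in ASC over T cells (SE 0.44, adjusted p = 0.0273). The last call was lost with library totals in place of TMM (trimmed mean of M-values) scaling (adjusted p = 0.0528), with DESeq2 (0.0972), without WT SC (0.0930) and without KO SC (0.121), at log2 fold changes of 0.88 to 1.21. B cells of IP, with 0 UMIs in 20 and 24 cells, lie at the limit of depth.

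Outside these classes Cdkn1a was also high in myeloid cells. Macrophages held 365 (WT) and 435 (KO) CPM in IP, and neutrophils 449 in KO SC and 650 in KO IP, from 10 and 22 cells. The 17 EC of WT IP held 406 CPM, and NK cells 100, 201, 125 and 250 in the order used for ASC. These classes are small, and the values in neutrophils and EC are given without a test.

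Cdkn1a RNA was unevenly spread over cells. Each cell was thinned to 3000 UMIs so that depth could not set the share of cells with a UMI, and cells under that depth were left out. In SC this share of ASC was 41.3% of 80 cells in WT and 43.2% of 111 in KO. In IP it was 21.5% of 251 cells in WT and 21.5% of 181 in KO. In T cells it was 9.43% and 11.2% in SC and 23.5% and 25.2% in IP, in the order WT and KO. B cells, which had the least Cdkn1a of the tested classes, gave 3.11% and 1.18% in SC for comparison. Without thinning, 49.0% (WT) and 65.6% (KO) of ASC in SC and 48.0% and 51.2% in IP had a UMI, at median depths of 19990, 14659, 23153 and 21657 UMIs, against 5.37% and 2.25% of B cells in SC at 5969.5 and 4931. In T cells of WT SC, 14.6% of 431 cells had any Cdkn1a UMI, and the 44 cells with the most Cdkn1a held 91.7% of its UMIs. In T cells of WT IP the corresponding 11 cells held 59.3%. The level of Cdkn1a in T cells of SC therefore came from a small fraction of the cells.

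Gadd45a (ENSMUSG00000036390, chr6:67035096-67037457, minus strand), a growth arrest and DNA repair factor, was lower in T cells than in the other tested classes. There it was 24.6 (WT) and 19.9 (KO) CPM in SC and 18.5 (WT) and 13.0 (KO) in IP. B cells held 49.2, 41.9, 13.1 and 51.7, and ASC 43.2, 40.1, 22.7 and 29.9. ASC lay above T cells within each library, although the ranges overlapped, and so did B cells apart from WT IP, where 20 cells held 2 UMIs. Gadd45a was higher than in T cells by a log2 fold change of 1.03 in B cells (SE 0.24, adjusted p = 0.00282 by edgeR) and 0.91 in ASC (SE 0.22, adjusted p = 0.00288), and ASC and B cells were not called different (-0.11, SE 0.24, adjusted p = 0.723). Neutrophils held 214 CPM in KO SC and 329 in KO IP, from few cells and with no test.

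Ccng1 (ENSMUSG00000020326, chr11:40748552-40755311, minus strand), which codes for cyclin G1 and acts with Mdm2 in the return to low p53, was lowest in B cells among the 3 tested classes. It stood at 13.1 to 20.7 CPM over the 4 libraries there, at 21.8 to 37.0 in ASC and at 24.9 to 46.1 in T cells, so that B cells did not overlap with the other classes. It was called higher in ASC than in B cells (log2 fold change 0.77, SE 0.21, adjusted p = 0.00742 by edgeR) and lower in B cells than in T cells (-0.86, SE 0.21, adjusted p = 0.00310). ASC and T cells were not called different (-0.09, SE 0.17).

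Phlda3 (ENSMUSG00000041801, chr1:135766119-135769136, plus strand), which restrains Akt signalling by binding membrane lipids, was found mostly in ASC. There it stood at 50.4 (WT) and 33.6 (KO) CPM in SC and 98.6 (WT) and 69.4 (KO) in IP. B cells had 0 UMIs in 786 cells and NK cells 0 in 102, and T cells had 9 UMIs in 1749 cells, at 0 to 4.62 CPM per library. Pooled over the 4 libraries ASC held 75.4 CPM, at least 115-fold higher than B cells and at least 23.2-fold higher than NK cells. A count of 0 over the whole class was taken to allow 3 UMIs. These pooled bounds mix depots, since most ASC UMIs came from IP and most B cell UMIs from SC, and they do not hold within each library. Within a library the same allowance put B cells at up to 1.62 (WT) and 1.27 (KO) CPM in SC and 19.7 and 15.5 in IP. For NK cells it was 14.3 and 27.4 in SC and 5.85 and 32.6 in IP. The log2 fold change in ASC over T cells was 6.15 (SE 0.44, adjusted p = 5.98e-07 by edgeR). EC of WT IP held 17.0 CPM and macrophages had 1 UMI in 87 cells. The markers that defined ASC did not include Phlda3.

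**Figure D2:**
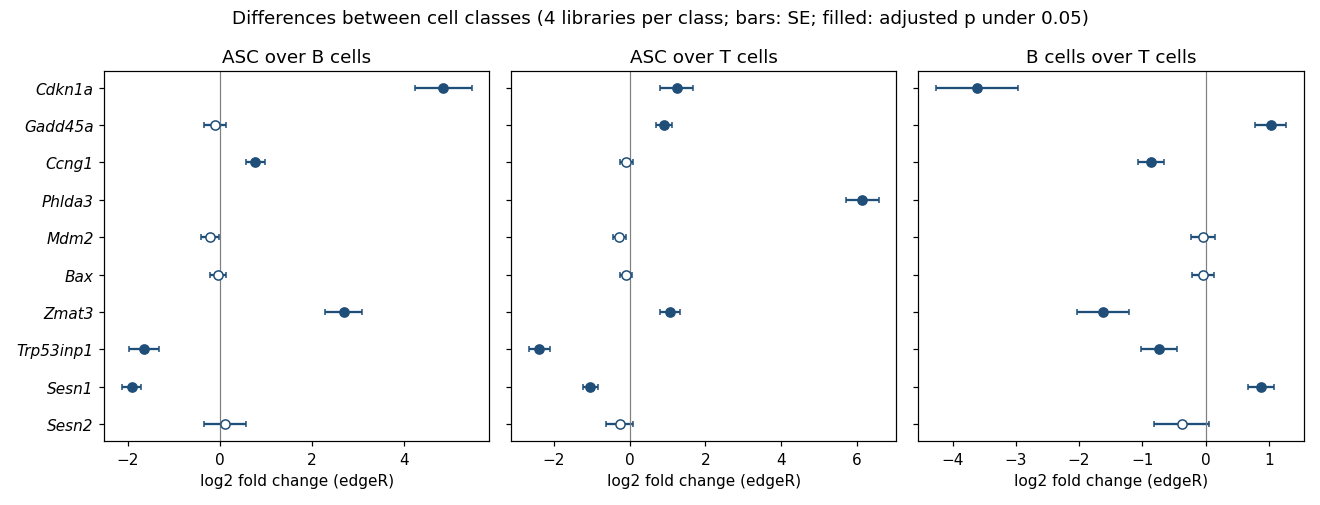
Log2 fold change (horizontal axis, scale differs between panels) of each gene between ASC, B cells and T cells from the edgeR fit over 4 libraries. Bars show the approximate SE derived from the F statistic, and filled points an adjusted p under 0.05. Cdkn1a and Zmat3 lie right of 0 in both ASC panels and Trp53inp1 and Sesn1 left of 0, and Mdm2, Bax and Sesn2 are open in all 3 panels. Phlda3 is drawn only in ASC over T cells, since B cells had no UMI of it.

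Mdm2 (ENSMUSG00000020184, chr10:117688875-117710758, minus strand), the feedback inhibitor of p53, was level across the 3 tested classes. Its levels were 42.7 to 66.0 CPM in ASC, 55.7 to 78.6 in T cells and 54.2 to 72.2 in B cells, ranges that overlap. The log2 fold change was -0.22 in ASC over B cells (SE 0.20, adjusted p = 0.367 by edgeR), -0.27 in ASC over T cells (SE 0.17, adjusted p = 0.218) and -0.04 in B cells over T cells (SE 0.19, adjusted p = 0.885). Macrophages stood apart with 240 CPM in WT IP and 346 in KO IP, above every other class and library with at least 10 cells.

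The macrophages were tested in a second fit, added after the levels had been seen, in which NK cells of all 4 libraries and macrophages of the 2 IP libraries joined the other classes (5 classes, at least 10 cells in each library used, 12133 genes, 10 pairs adjusted together). Mdm2 was higher in macrophages by a log2 fold change of 2.27 over ASC (SE 0.26, adjusted p = 2.76e-07 by edgeR), 2.16 over B cells (SE 0.29, adjusted p = 2.38e-06), 2.07 over T cells (SE 0.26, adjusted p = 1.3e-06) and 2.0 over NK cells (SE 0.30, adjusted p = 1.01e-05). Each of these calls held when the macrophages of either library were left out, with values of 1.93 to 2.36, the single library left being then assumed to vary like the other classes. Macrophage markers in ASC summed to 2.36 to 14.5 CPM, against 4272 and 7012 in the macrophages, and ASC markers in macrophages to 42.9 and 68.1, against 25658 to 33458 in ASC.

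In the same fit the 10 genes gave 6 calls in ASC against macrophages, where 37.8% of all genes were called, and 6 in B cells against macrophages (29% of all genes). Macrophages against T cells gave 5 (31.4%), and macrophages against NK cells 4 (25.2%). ASC against NK cells gave 4 (48.2%), B cells against NK cells 2 (22.4%), and NK cells against T cells 0 (12.8%). In the last pair 1 gene had an unadjusted p under 0.05 by edgeR, and DESeq2 was not run on this fit. Cdkn1a was higher in macrophages than in T cells by 2.23 (SE 0.45, adjusted p = 0.000356) and than in B cells by 5.82 (SE 0.61, adjusted p = 6.59e-08). Its difference from NK cells, 1.66 (SE 0.49, adjusted p = 0.0104), was no longer called without the macrophages of WT IP (1.46, adjusted p = 0.125), and that from ASC, 0.89, was not called (SE 0.48, adjusted p = 0.167).

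Bax (ENSMUSG00000003873, chr7:45461697-45466898, minus strand), the pore-forming effector of apoptosis, was as level as Mdm2 across the main classes. Its levels were 62.5 to 77.6 CPM in ASC, 62.9 to 89.2 in T cells and 56.9 to 97.3 in B cells, and no pair was called, with log2 fold changes of -0.09 to -0.04 and SEs of 0.16 to 0.18. Macrophages held 195 CPM in WT IP but 73.4 in KO IP. Macrophages were called above ASC (log2 fold change 0.99, adjusted p = 0.0137 by edgeR), but this rested on WT IP alone, since without its macrophages the value was 0.05 (adjusted p = 0.993). The same held for Bax against T cells, 0.99 with both libraries (adjusted p = 0.0155) and -0.032 without WT IP.

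Zmat3 (ENSMUSG00000027663, chr3:32334792-32366014, minus strand), an RNA-binding zinc finger protein that changes splicing, was highest in ASC and lowest in B cells among the 3 tested classes. ASC held 13.6 to 19.98 CPM over the libraries, T cells 6.93 to 11.0, and B cells 0 to 6.56, without overlap between the 3 classes. It was higher in ASC than in B cells by a log2 fold change of 2.69 (SE 0.40, adjusted p = 5.98e-05 by edgeR) and than in T cells by 1.07 (SE 0.26, adjusted p = 0.00349). It was lower in B cells than in T cells by -1.62 (SE 0.41, adjusted p = 0.00409), a call that was lost without KO SC (-1.52, adjusted p = 0.0588). B cells had only 12 UMIs of Zmat3 in all.

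Of the 3 stress and autophagy genes, Trp53inp1 and Sesn1 were called lower in ASC than in both lymphocyte classes, and Sesn2 was called in no pair. Trp53inp1 (ENSMUSG00000028211, chr4:11156431-11174379, plus strand), a nuclear protein of cell death and autophagy, was highest in T cells among the 3 tested classes, with 79.8 (WT) and 61.9 (KO) CPM in SC and 114 (WT) and 87.1 (KO) in IP. B cells held 48.1, 48.2, 52.5 and 25.9, and ASC 13.8, 8.25, 12.5 and 26.3. T cells lay above both other classes in all 4 libraries. The log2 fold change was -2.38 in ASC over T cells (SE 0.28, adjusted p = 6.29e-06 by edgeR), -1.64 in ASC over B cells (SE 0.32, adjusted p = 0.000681) and -0.74 in B cells over T cells (SE 0.29, adjusted p = 0.0428). The last call was lost under stricter marker rules (adjusted p = 0.0710), without WT SC (0.118) and without WT IP (0.102). Macrophages held 3.97 and 10.5 CPM, a log2 fold change of -4.14 against T cells (SE 0.63, adjusted p = 1.46e-05), which held without either library.

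Sesn1 (ENSMUSG00000038332, chr10:41809935-41908424, plus strand), a sestrin, one of the sensors that restrain mTORC1 and help the cell against oxidants, was highest in B cells among the same classes. They held 179 (WT) and 189 (KO) CPM in SC and 118 (WT) and 134 (KO) in IP. T cells held 106, 75.4, 53.2 and 116, and ASC 39.3, 51.3, 34.3 and 31.7, and in every library the order was B cells, T cells, ASC. The log2 fold change was 0.88 in B cells over T cells (SE 0.21, adjusted p = 0.00247 by edgeR), -1.04 in ASC over T cells (SE 0.20, adjusted p = 0.000513) and -1.92 in ASC over B cells (SE 0.21, adjusted p = 3.76e-06). Its relative Sesn2 (ENSMUSG00000028893, chr4:132492032-132510501, minus strand) was sparse, at 4.71 to 12.2 CPM in ASC, 9.69 to 11.6 in T cells and 0 to 19.7 in B cells, and no pair was called at SEs of 0.37 to 0.46.

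Some of these counts have a positional limit. In the GENCODE annotation Cdkn1a and Gadd45a each overlap an antisense gene, and Sesn1, Sesn2 and Bax each overlap another gene on the same strand. The strand setting of the counting was not given in the sources used here, so that reads from the overlapping parts could not be assigned with certainty.

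The other genes of the pathway were described from lists chosen with earlier results of these data known. Of the upstream kinases and regulators 7 of 8 passed the filter on low counts, and 5 were lower and 0 higher in ASC than in B cells, with 3 lower and 0 higher than in T cells, where 63.3% and 65.2% of all genes were called in either direction. Trp53 itself was lower in ASC by a log2 fold change of -0.99 against B cells (SE 0.17, adjusted p = 0.000174 by edgeR) and -1.28 against T cells (SE 0.15, adjusted p = 6.61e-06). The target and arrest genes did not share a direction beside it. Phlda3, Zmat3 and Cdkn1a were called higher in ASC than in both T cells and B cells. The Cdkn1a call against T cells was lost in some alternatives. It also did not describe IP, where T cells held 131 (WT) and 139 (KO) CPM against 113 and 135 in ASC. Trp53inp1 and Sesn1 were called lower in ASC than in both classes, as Trp53 was. Ccng1 was called higher in ASC against B cells only and Gadd45a against T cells only. Mdm2, Bax and Sesn2 were called against neither class. Ppm1d, a phosphatase that turns p53 signalling off, was also lower in ASC than in T cells (-1.35, SE 0.22, adjusted p = 0.000120), and Mdm4, the partner of Mdm2, was higher in B cells than in T cells (0.78, SE 0.17, adjusted p = 0.00127).

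The list of 7 other arrest genes held CDK inhibitors and Rb1, the gene of the retinoblastoma protein. Of these 5 passed the filter, without Cdkn2a and Cdkn2b. In ASC against B cells and against T cells 5 and 4 of them were called, where 63.3% and 65.2% of all genes were. ASC had more Cdkn1c, which codes for p57, than B cells (6.23, SE 0.34, adjusted p = 3.35e-09 by edgeR) and T cells (4.04, SE 0.21, adjusted p = 2.32e-09). ASC had less Cdkn1b, which codes for p27, than T cells (-1.75, SE 0.18, adjusted p = 2.04e-06) and less Cdkn2d, which codes for p19 of the INK4 family (-2.01, SE 0.18, adjusted p = 6.05e-07). The CDK inhibitors thus differed in which class held most of them.

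Of 16 further p53 targets 13 passed. ASC were higher than B cells in 3 and lower in 2, and higher than T cells in 3 and lower in 4, so that 5 and 7 of 13 were called, again beside 63.3% and 65.2% of all genes. Fas, the death receptor, was higher in ASC than in B cells (2.45, SE 0.34, adjusted p = 3.52e-05 by edgeR) and lower in B cells than in T cells (-2.57, SE 0.33, adjusted p = 1.76e-05). Ddb2, a damage sensor of nucleotide excision repair, was lower in ASC than in T cells (-2.66, SE 0.29, adjusted p = 2.83e-06). Bbc3, which codes for the apoptosis activator PUMA, was lower in ASC than in T cells (-1.74, SE 0.29, adjusted p = 0.000158), and Plk2, a kinase of the centriole cycle, was higher (2.04, SE 0.32, adjusted p = 9.11e-05).

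The genes whose pattern was most like that of Cdkn1a over the 12 sums of class and library, by Pearson correlation of log2(CPM + 10), were Hivep3 (r = 0.980), Cdr2 (0.979), Cast (0.979), Atp10a (0.978) and Clasp2 (0.977). None of these is a marker used for the classes. The sums share 4 libraries and 3 classes and are not independent.

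The depots were compared next. Within a genotype each depot is 1 library, so IP over SC is given as a log2 ratio of CPM with an exact 95% interval that covers counting error only, where the 2 libraries together held 20 UMIs or more, and genes past 1.5-fold are counted. In ASC Cdkn1a was lower in IP than in SC, by a log2 ratio of -1.16 in WT (interval -1.33 to -0.98) and -1.26 in KO (-1.43 to -1.09). In T cells it was higher in IP, by 1.36 in WT (1.02 to 1.69) and 1.29 in KO (1.002 to 1.55). With stricter markers the KO value in T cells was 1.87. The 2 genotypes gave the same directions, and the 2 cell classes opposite ones, as the plot of Cdkn1a by depot shows.

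**Figure D3:**
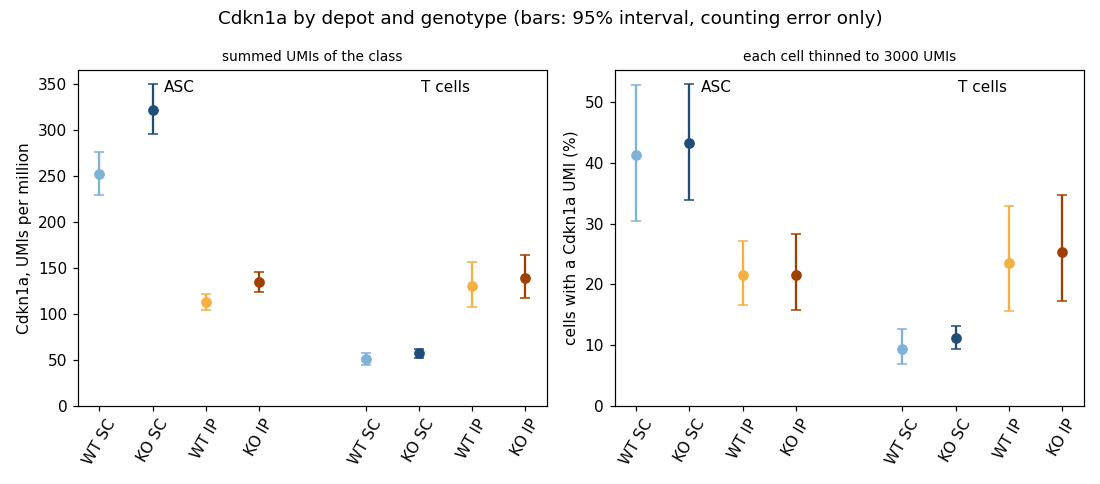
Cdkn1a in ASC and T cells of the 4 libraries, as CPM (left) and as the percentage of cells with a Cdkn1a UMI after thinning to 3000 UMIs (right), with 95% intervals for counting error. SC lies above IP in ASC (252 and 322 against 113 and 135) and below IP in T cells (51.1 and 57.2 against 131 and 139), and the shares of cells are ordered alike.

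The difference between these 2 depot effects was tested after it had been seen, with a class-by-depot term in the edgeR fit over the 12 sums, library as a block and 2 libraries per depot. The depot effect on Cdkn1a in ASC was lower than that in T cells by -2.37 on the log2 scale (SE 0.33, adjusted p = 0.000174). It ranged from -2.51 to -2.24 without each library in turn, with adjusted p of 1.08e-06 to 0.0189, where a depot left with 1 library was assumed to vary like the other. It was -2.48 with DESeq2 (adjusted p = 0.00995). Cdkn1a was the only 1 of the 10 genes that passed, where 5.48% of all genes did. The additive fit of depot and genotype over the 4 libraries of a class was also added after seeing the data and had 1 residual degree of freedom. Its p-values therefore rest largely on the spread that edgeR shares over genes. In this fit Cdkn1a was lower in IP in ASC (-1.28, SE 0.16, adjusted p = 7.46e-05 by edgeR) and higher in IP in T cells (1.16, SE 0.22, adjusted p = 0.00162). In ASC 3 of 10 genes were called, where 15.6% of all genes were, the others being Phlda3 (0.93, SE 0.17, adjusted p = 0.00184) and Gadd45a (-0.75, SE 0.21, adjusted p = 0.0327). In T cells 1 of 9 was called (6.7% of all genes) and in B cells 0 of 6 (1.17%), with 0 at an unadjusted p under 0.05. Each depot is 2 libraries, and mice and depots cannot be told apart from library handling at this number.

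Other measures were compared between the depots as well, and not all of them moved with Cdkn1a. The summed CPM of NK cell markers in T cells was 53.8 and 68.3 in SC and 215 and 264 in IP. The dissociation list, 15 immediate early and heat shock genes that respond to tissue digestion, gave a summed log2 ratio of IP over SC in ASC of 0.01 in WT and -0.56 in KO, and in T cells of -0.07 in WT and 0.10 in KO. The part of dissociation in the Cdkn1a values was not tested. With the mean CPM per cell in place of summed UMIs, Cdkn1a in WT ASC differed by -0.70. The part of NK cell RNA or T cell subsets in the T cell value was not tested.

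Phlda3 in ASC ran against Cdkn1a. It was higher in IP than in SC by a log2 ratio of 0.96 in WT (0.65 to 1.30) and 1.04 in KO (0.63 to 1.48). Counted over the 10 genes, in WT ASC 1 was past 1.5-fold higher and 3 lower in IP, where 33.1% of all genes were past it in either direction, and in KO ASC 3 were higher and 2 lower (34.2%). The 3 lower genes in WT were Cdkn1a, Gadd45a (-0.93, -1.33 to -0.51) and Sesn2 (-1.38, -2.22 to -0.50). In KO ASC Trp53inp1 was higher in IP by 1.63 (0.87 to 2.59) and Ccng1 by 0.75 (0.24 to 1.32), and Sesn1 was lower by -0.70 (-1.09 to -0.29).

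In T cells, 1 gene was past 1.5-fold higher and 1 lower in IP in WT (28.9% of all genes), and 4 were higher and 0 lower in KO (44.3%). The median of all genes was 0.02 in WT and 0.31 in KO, so that the KO values sit on a general shift. Relative to it Cdkn1a was higher in IP by 0.97 in KO and 1.33 in WT. Sesn1 was lower in T cells of IP in WT (-0.99, -1.47 to -0.56) and higher in KO (0.63, 0.33 to 0.91, or 0.32 relative to the median of all genes).

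The sum over the 10 genes depended on Cdkn1a in ASC and in WT T cells. In ASC it was lower in IP by -0.33 in WT (-0.43 to -0.23) and -0.32 in KO (-0.43 to -0.21), and without Cdkn1a the ratios were 0.10 and 0.30. In T cells it was higher in IP by 0.20 in WT (0.05 to 0.35), and -0.033 without Cdkn1a, and by 0.60 in KO (0.46 to 0.72), and 0.43 without it.

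KO was then compared with WT within a depot, to see whether the genes of p53 differed in cells of mice with the floxed Tert. Over the 4 libraries of a class, with depot as a block, no gene of the 10 was called. In ASC 0 of 10 passed by edgeR (0.783% of all genes did), with 2 at an unadjusted p under 0.05, Phlda3 (-0.56, SE 0.17, adjusted p = 0.271) and Mdm2 (0.39, SE 0.18, adjusted p = 0.819). In T cells 0 of 9 passed (0.433% of all genes) and in B cells 0 of 6 (0.279%), with 0 at an unadjusted p under 0.05 in both. Cdkn1a in ASC was 0.28 in this fit (SE 0.16, adjusted p = 0.976). The ratios within each depot, given next, therefore compare libraries, with intervals for counting error only.

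ASC of both depots held more Cdkn1a in KO. Its levels were 322 against 252 CPM in SC, a log2 ratio of 0.35 (0.17 to 0.54), and 135 against 113 CPM in IP, a ratio of 0.25 (0.09 to 0.41). Neither was past 1.5-fold, and both intervals leave out 0. These intervals treat the UMIs as independent, although single cells held many of them. In IP 1 KO cell held 80 of the 605 Cdkn1a UMIs, against at most 40 of 697 in a WT cell. In SC the most in a cell was 50 of 547 UMIs in KO and 26 of 456 in WT. The ratios without such cells were not computed. The thinned share of ASC with a Cdkn1a UMI was 41.3% in WT and 43.2% in KO of SC, and 21.5% in both of IP, with overlapping intervals. Without thinning the share was 49.0% in WT and 65.6% in KO of SC, at median depths of 19990 and 14659 UMIs. The thinned shares leave out 22 WT and 14 KO cells of SC.

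Across the KO and WT libraries the dissociation list differed as well. Its summed log2 ratio in ASC was 0.31 in SC and -0.26 in IP, and its part in the Cdkn1a values was not tested. Mean CPM per cell gave 0.79 for Cdkn1a in ASC of SC, and 0.29 when the 93 shared barcodes were kept in KO SC. Summed UMIs with those barcodes kept gave 0.32.

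Phlda3 was lower in KO ASC of both depots, at 33.6 against 50.4 CPM in SC (log2 ratio -0.58, -1.09 to -0.09) and 69.4 against 98.6 in IP (-0.51, -0.71 to -0.31). It was just inside 1.5-fold in both. Cdkn1a and Phlda3 therefore had intervals that leave out 0 in opposite directions in the same cells. With mean CPM per cell and the shared barcodes kept, Phlda3 in SC was reversed at 0.54.

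Over the 10 genes in ASC of SC, 0 were past 1.5-fold higher in KO and 1 lower, where 18.6% of all genes were past it in either direction. The lower gene was Trp53inp1 at -0.72, with an interval of -1.80 to 0.25. In ASC of IP 3 were higher and 0 lower (17% of all genes). Mdm2 was at 66.0 against 42.7 CPM (0.63, 0.38 to 0.87), Trp53inp1 at 26.3 against 12.5 (1.07, 0.65 to 1.51), and Sesn2 at 7.36 against 4.71 (0.64, -0.12 to 1.42). Ccng1 at 0.47 (0.15 to 0.79) and Gadd45a at 0.39 (0.04 to 0.75) were higher by less than 1.5-fold, and Bax was lower at -0.21 (-0.43 to -0.003). The median of the 10 genes was 0.32 in IP and -0.22 in SC, against 0.06 and 0.01 for all genes. In SC the intervals of Mdm2 (-0.37 to 0.55) and Ccng1 (-1.12 to 0.15) include 0, and the difference between depots was not tested.

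**Figure D4:**
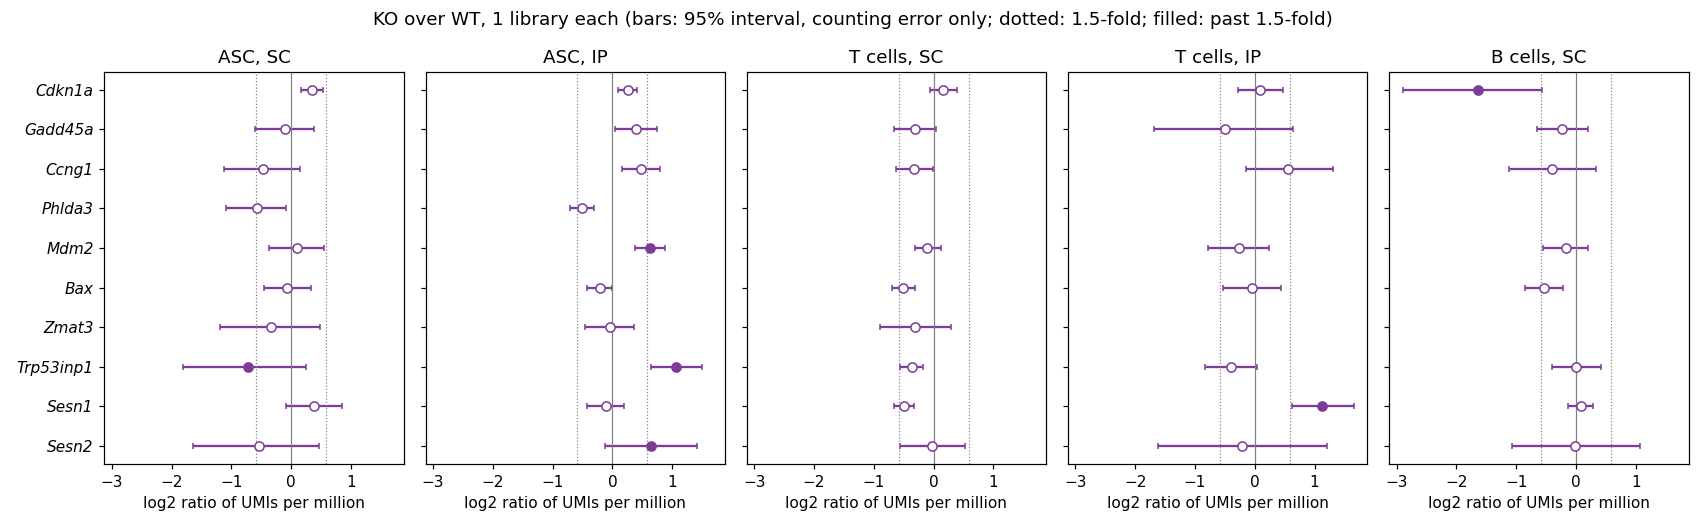
Log2 ratio of KO over WT (horizontal axis) for each gene with at least 20 UMIs, in ASC and T cells of both depots and B cells of SC, 1 library each, with 95% intervals for counting error and dotted lines at 1.5-fold, past which points are filled. Cdkn1a lies right of 0 and Phlda3 left of 0 in both ASC panels, and Sesn1 in T cells lies left of 0 in SC (-0.50) and right of it in IP (1.12).

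In T cells of SC, 9 genes were compared and 0 were past 1.5-fold in KO, where 18.8% of all genes were. The median of the 9 was -0.32, and the median of all genes -0.14. Sesn1 was at 75.4 against 106 CPM (-0.50, -0.67 to -0.33), Bax at 62.9 against 89.2 (-0.50, -0.69 to -0.32), and Trp53inp1 at 61.9 against 79.8 (-0.37, -0.56 to -0.17). Relative to the median of all genes they were lower by -0.36, -0.37 and -0.23. Cdkn1a was 0.16 (-0.06 to 0.40), or 0.30 relative to that median, and it was -0.18 with the stricter markers. The heat shock genes Hspa1a and Hspa1b, named here after their values were seen, were at 25.5 and 28.0 CPM in KO against 608 and 466 in WT in these cells, and the dissociation list as a whole gave a summed ratio of -0.25. Their part in the other differences was not tested.

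In T cells of IP, with 103 and 108 cells, 1 gene was past 1.5-fold higher and 0 lower of 8 compared (25.5% of all genes). This was Sesn1, at 116 CPM in KO against 53.2 in WT (1.12, 0.62 to 1.65, or 0.99 relative to the median of all genes). Cdkn1a was at 139 against 131 (0.09, -0.28 to 0.46). In B cells of SC, 0 were higher and 1 lower of 8 (15.9% of all genes). The lower gene was Cdkn1a, at 4.23 against 13.5 CPM (-1.63, -2.90 to -0.57), from 10 and 25 UMIs. Bax in B cells was at 67.3 against 97.3 (-0.53, -0.85 to -0.22), and the dissociation list gave a summed ratio of -0.54 there, whose part was not tested.

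Among the other genes of the pathway, those past 1.5-fold with an interval that leaves out 0 in both depots turned direction between them. The share of all genes that did so was not computed. In T cells the median of all genes turned as well, at -0.14 in SC and 0.13 in IP. Past 1.5-fold in KO T cells, 14.0% of all genes were lower and 4.74% higher in SC. In IP it was 6.99% lower and 18.5% higher. In T cells Ddit4, an inhibitor of mTORC1, was lower in KO of SC (-1.72, -2.13 to -1.32) and higher in KO of IP (1.20, 0.46 to 2.05), and so was Polk, a polymerase that copies past damaged bases (-0.62, -1.13 to -0.11, and 1.34, 0.40 to 2.46). In ASC Eda2r, a receptor of the tumour necrosis factor family, was lower in KO of SC (-3.03, -5.59 to -1.55, from 3 against 30 UMIs) and higher in KO of IP (1.01, 0.36 to 1.69). Of the further p53 targets in ASC, 4 were past 1.5-fold higher and 2 lower of 12 in SC, and 3 higher and 1 lower of 14 in IP, where 18.6% and 17% of all genes were past it in either direction. The summed list of 7 other arrest genes, CDK inhibitors and Rb1, differed in ASC by -0.01 in SC (-0.23 to 0.20) and 0.37 in IP (0.24 to 0.49).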

How the data were processed

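Gene tables of 4 libraries from 10x Genomics Chromium 3' kits were used. The deposited tables held unnormalized UMI counts for each gene in each barcode. Their headers name Cell Ranger 7.0.0 as the authors' counting software. The submitters' processing notes also name STAR 2.6 and mm10. The use of intronic reads was not given in the sources used here. The 10 genes and the other lists were chosen with earlier results of these data known.

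Cells needed 200 genes or more and no more than 25% of mitochondrial UMIs, doublets marked by Scrublet in scanpy 1.11.5 (expected rate 5%, 0.556% marked) were removed, and of barcodes shared by KO SC and WT IP the KO SC copy was left out, a step added after seeing the data. The 4 tables held 10015201 to 15533961 UMIs. Classes came from 6 markers each for 9 classes. UMIs were summed per class and library.

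Classes were compared with edgeR 4.0.16 (filterByExpr, TMM, quasi-likelihood, library as a block, adjusted p under 0.05). The fit with 5 classes, the class-by-depot term and the additive fit of genotype and depot per class (4 libraries, adjusted over the genes of 3 classes) were added after the levels had been seen. KO over WT and IP over SC were log2 ratios of CPM after adding 0.5 UMI, for classes with at least 30 cells in both libraries, with exact 95% conditional binomial intervals. Counts carry Poisson and shares Clopper-Pearson intervals. None of these covers the spread between mice. A count of 0 was taken to allow 3.

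All 10 genes were named. Genes of the other lists were named only where called between classes, or past 1.5-fold with an interval leaving out 0 in both depots, and for Cdkn1a the 5 genes most like it. Alternatives were DESeq2 1.42.0, library totals, no filter on low counts, at least 500 genes or at most 10% mitochondrial UMIs, stricter markers (4, and 3 more than any other class), doublets kept, median-of-ratios scaling, mean CPM per cell, 1 UMI added, the sum without Cdkn1a, and leaving out each library. Scripts were tested on simulated counts. Positions are from GENCODE (GRCm38), matched by gene identifier.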

Additional observations from a re-analysis of the deposited data

Results flagged for a closer look

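Sesn1 in T cells, the sestrin gene that was lower there than in B cells, was singled out because KO over WT took opposite directions in the depots beyond counting error. The log2 ratio was -0.50 in SC (75.4 against 106 CPM) and 1.12 in IP (116 against 53.2 CPM). Each side is 1 library per genotype, so that the difference between depots was not tested against a spread between mice. The T cells of SC and IP also differed in their summed NK cell markers, 53.8 and 68.3 CPM in SC against 215 and 264 in IP, and the part of this was not tested.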

How the results depend on the processing

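The count of called class differences was 16 to 18 of 30 without each library in turn and in the other alternatives stayed within 1.5 times of 18. Of 360 recomputed values for single genes between classes, 352 kept their side of the threshold, 19 of them uncalled values of Bax, Ccng1, Gadd45a and Sesn2 near 0 that changed sign, and 8 lost the call, all in Cdkn1a (ASC over T cells), Trp53inp1 and Zmat3 (B cells over T cells). The depot effect in ASC against T cells called 1 of the 10 genes under library totals, DESeq2, at least 500 genes, at most 10% mitochondrial UMIs, stricter markers, doublets kept, shared barcodes kept and without each library in turn, while the count over all genes fell from 605 to between 213 and 425 without each library in turn. Of 80 values for macrophages against other classes without 1 macrophage library, 67 kept the call or its absence, 12 lost it and 1 reversed. The summed log2 ratio of the 10 genes depended more on the choices. With median-of-ratios scaling KO over WT in T cells of SC was -0.16 and IP over SC in KO T cells 0.28. Without Cdkn1a the summed ratio was -0.033 (T cells, WT, IP over SC), 0.43 (T cells, KO, IP over SC), -0.14 (ASC, SC, KO over WT), 0.10 (ASC, WT, IP over SC) and 0.30 (ASC, KO, IP over SC). With mean CPM per cell it was 0.36 (ASC, SC, KO over WT) and -0.054 (ASC, WT, IP over SC), and with the shared barcodes kept as well -0.054 (ASC, WT, IP over SC) and -0.14 (ASC, KO, IP over SC). The log2 ratio of a single gene counted as reversed where its main interval left out 0 and its sign changed. This held for Ccng1 in ASC of IP, KO over WT, at -0.30 with mean CPM per cell with or without the shared barcodes. With the shared barcodes kept it also held for Ccng1 in KO ASC, IP over SC, at -0.18 and Phlda3 in ASC of SC, KO over WT, at 0.54. Bax in macrophages over T cells ranged from -0.032 (without WT IP) to 1.45 (without KO IP). The causes were not tested, beyond what leaving out Cdkn1a shows. No paired analysis was possible because the replicate number is 1 in each group and pairs no animals, but the class fits carry the library as a block and the additive fit carries the depot or genotype. Leaving out a library from the additive fit leaves no residual degree of freedom, so it was not run. Neutrophils, EC and B cells of IP were limited by cell number.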
